A study of Mus musculus with 9 samples.

Results

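The genes described here are 10 transcription factor genes of the endocardial cushions and of epithelial-mesenchymal transition (EMT), namely Sox9, Scx, Twist1, Twist2, Snai1, Snai2, Msx1, Msx2, Prrx1 and Prrx2. They were picked by symbol from the 48397 gene symbols of each count file, and all 10 were among the 16522 genes that passed a filter on low counts. RNA was sequenced from mouse cardiac outflow tracts at embryonic day 12.5, on a C57BL/6J strain background. The 5 deletion samples carried the genotype Nkx2-5delta-enh/delta-enh, a homozygous deletion of the Nkx2-5 enhancer of the anterior second heart field. The 4 wild-type samples carried Nkx2-5+/+. The series describes them as littermates, and its labels name no other allele and no treatment. A number in the name of each count file was read as a litter, which is an assumption. It places deletions 1 and 2 with wild types 1 and 2 in a first litter, and deletions 3 and 4 with wild types 3 and 4 in a second. Deletion 5 carries a number of its own, with the same digits as that of the second litter in another order.

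The outflow tract cushions are swellings of extracellular matrix that later form the arterial valves and help to divide the aorta from the pulmonary artery. Some endocardial cells that line them lose their contacts, change to mesenchyme and invade the matrix, under signals of the BMP, TGF-beta and Notch pathways from heart muscle and endocardium. Neural crest cells also enter the outflow cushions. Snail and Twist factors repress epithelial adhesion genes in such transitions, Msx factors act downstream of BMP signalling, and Sox9, Scx and the Prrx factors are known from mesenchyme and matrix-producing cells.

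Promoter sequences are shown for members from 3 of the families whose levels were lowest in the same libraries below. RefSeq's promoter table for GRCm38.p6 held an entry for 7 of the 10 genes and none for Sox9, Snai2 and Scx. Each stretch runs 5′ to 3′ on the gene's own strand, covers up to 250 bases before the RefSeq start and stops where the GENCODE gene body begins. Capitals mark CACCTG, the other strand of the E-box CAGGTG to which Snail factors bind, TAATTA, a core bound by many homeodomain proteins, and TNAAGTG, a core bound by Nkx2-5. The Snai1 stretch is chr2:167537945-167538194 on the plus strand, that of Msx1 is chr5:37824586-37824835 on the minus strand, and that of Prrx1 is chr1:163313711-163313900 on the minus strand.
Snai1: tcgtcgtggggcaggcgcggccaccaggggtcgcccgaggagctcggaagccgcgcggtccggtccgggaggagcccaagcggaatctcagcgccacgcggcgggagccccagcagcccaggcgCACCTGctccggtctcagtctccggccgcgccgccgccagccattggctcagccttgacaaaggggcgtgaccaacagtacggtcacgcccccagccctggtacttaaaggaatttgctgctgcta
Msx1: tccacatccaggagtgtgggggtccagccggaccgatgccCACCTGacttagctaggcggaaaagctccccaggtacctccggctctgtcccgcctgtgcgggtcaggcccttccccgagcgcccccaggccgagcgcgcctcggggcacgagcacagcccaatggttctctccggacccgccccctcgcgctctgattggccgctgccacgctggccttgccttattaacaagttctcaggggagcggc
Prrx1: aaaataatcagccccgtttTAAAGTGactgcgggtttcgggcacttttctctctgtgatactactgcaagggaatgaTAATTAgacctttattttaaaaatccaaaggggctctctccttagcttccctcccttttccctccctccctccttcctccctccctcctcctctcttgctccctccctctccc

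On either strand of the 250-base windows, CAGGTG occurred in 2 of the 7 members (Msx1 and Snai1) and in 17.2% of 32851 promoters of the same length. TAATTA occurred in 2 of 7 (Msx2 and Prrx1), against 4.84% of promoters, and TNAAGTG in 1 of 7 (Prrx1), against 10.1%. The general E-box CANNTG, which includes CAGGTG, was found in 3 of 7, against 66.2%. ACAATG, a core bound by Sox factors, was found in 0 of 7, against 10.7%. These are matches of letters in a short window, and binding was not measured. The windows of Msx2, Prrx1 and Prrx2 reach into the GENCODE gene body in whole or in part.

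Reads assigned to genes ranged between 27707435 and 49094225 in the deletion libraries and between 34325393 and 41292883 in the wild-type libraries. Whether each sample is a separate embryo is not in the labels, and the p-values then cover variation between samples alone, technical variation included. Levels are given as CPM, a read count scaled to the size of its library. Nkx2-5 itself had 11.4 to 24.4 CPM in the deletion libraries and 42.0, 45.0 and 39.5 CPM in wild types 2, 3 and 4. The library labelled wild type 1 had 18.8 CPM, within the values of the deletion samples. Its label is therefore not borne out by Nkx2-5, although the deletion removes an enhancer and not the gene. The log2 fold change of Nkx2-5, deletion over wild type, was -1.05 (SE 0.26, unadjusted p = 0.00225, adjusted p = 0.896, edgeR's quasi-likelihood test). Heart muscle markers were abundant throughout, with a summed level of 11600 to 15800 CPM in the deletion libraries and 8180 to 19500 CPM in wild types, of which the library labelled wild type 1 was lowest and wild type 2 highest. Neuronal and Schwann cell markers summed to 3270 CPM in deletion 2 and to at most 174 CPM in each other library.

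Levels of different genes were compared per kilobase of exon, as CPM per kb over the 9 libraries. The Snail factor Snai2 (52.9 ± 12.6) and Sox9 (42.1 ± 20.7) came highest, followed by Prrx2 (29.8 ± 8.10; SD, n = 9). A middle group held Scx (12.9 ± 2.03), Twist1 (10.9 ± 3.32), Msx1 (10.8 ± 4.82) and Snai1 (9.08 ± 2.33), and below it came Msx2 (6.43 ± 2.87) and Prrx1 (5.56 ± 1.28). Twist2 was lowest at 1.04 ± 0.32 CPM per kb. Levels lay closer together than the SD of either gene for Snai2 and Sox9, for each pair among Twist1, Msx1 and Snai1, and for Msx2 and Prrx1. The low rank of Prrx1 depends on its length, as its merged annotated exons hold 11066 bases against 1961 for Prrx2. In CPM without length, Prrx1 averaged 70.2 and Prrx2 61.9 in deletion libraries. In wild types Prrx1 averaged 50.6 CPM and Prrx2 53.8 CPM. The annotated exons of Twist2 share 1477 bases with the antisense gene Gm29100, and Scx lies inside Bop1 on the opposite strand without sharing exon bases. The strand setting of the counting is not given in the sources used here. It is therefore not known which gene, if any, received the reads over these stretches. The CPM per kb of Twist2 divides by all 3174 bases of its merged exons, the shared ones included. No 50-base stretch of exon was shared between members, paralogues included.

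**Figure D1:**
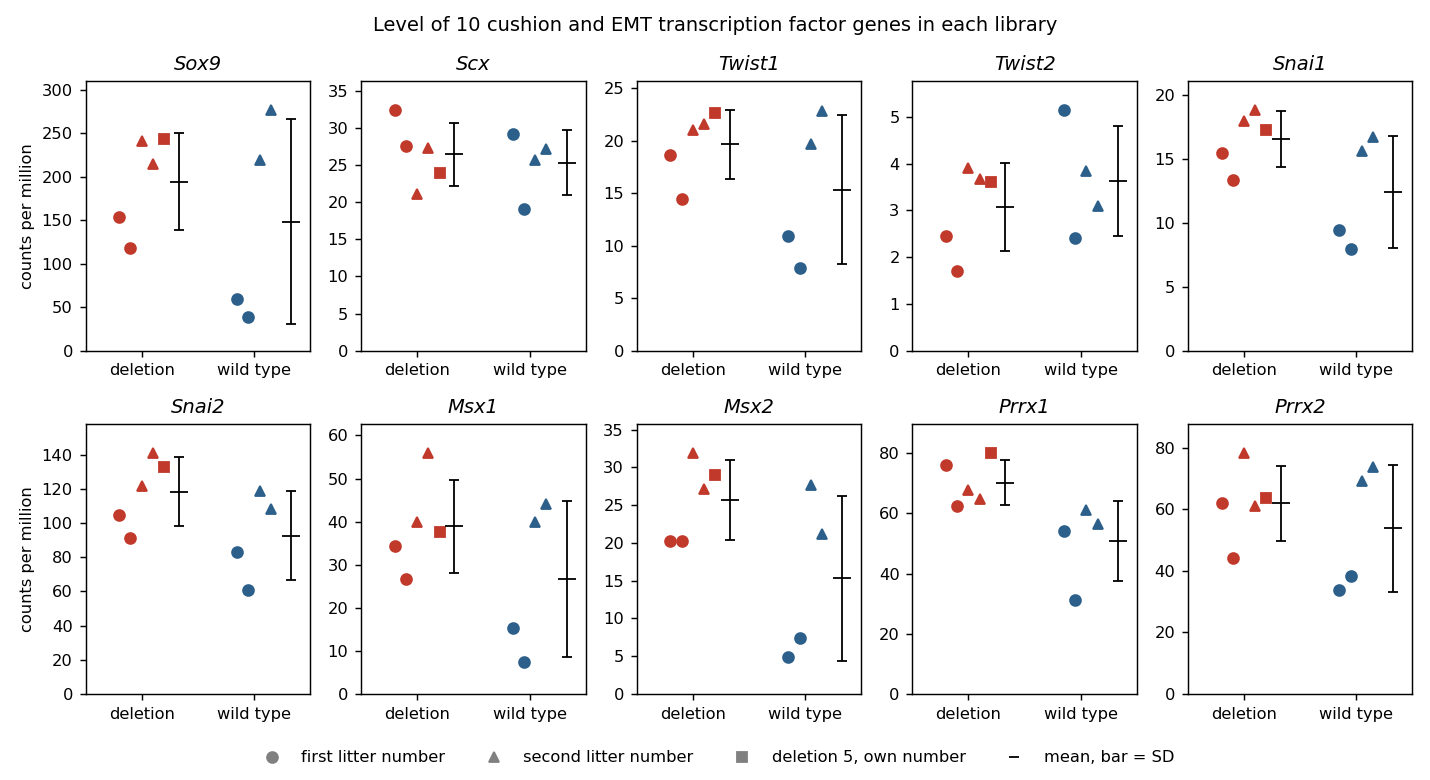
CPM of each gene in the 5 deletion libraries (red, left) and the 4 wild-type libraries (blue, right), with circles for the first litter number, triangles for the second, a square for deletion 5, and the mean with its SD in black. In 8 of the 10 panels both blue circles lie below every other point, and Prrx1 is the panel in which the genotypes do not overlap.

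Sox9, an SRY-related factor needed for the expansion of cushion mesenchyme in mice and for cartilage, lies at chr11:112782224-112787760 on the plus strand (mm10, GENCODE, as for the genes that follow, all protein-coding). It had 241 and 215 CPM in deletions 3 and 4 of the second litter, 154 and 118 CPM in deletions 1 and 2 of the first, and 244 CPM in deletion 5. It had 219 and 277 CPM in wild types 3 and 4, 59.1 CPM in the library labelled wild type 1 and 39.0 CPM in wild type 2. The low values were those of the first-litter wild types, and the second-litter wild types reached the level of the deletion libraries of that litter. Averages were 194 ± 56.0 CPM in deletion libraries (SD, n = 5) and 148 ± 117 CPM in wild types (SD, n = 4), with overlapping ranges. The log2 fold change was 0.39 (SE 0.54, adjusted p = 0.948, edgeR), and it was 0.07 without wild type 2, 0.13 without the library labelled wild type 1 and 0.89 without wild type 4.

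Scx, the bHLH factor scleraxis of tendon progenitors and valve matrix (chr15:76457452-76459458, plus strand), did not show this order of libraries. It had 21.1 and 27.3 CPM in deletions 3 and 4, 32.4 and 27.5 CPM in deletions 1 and 2 and 23.9 CPM in deletion 5, against 25.7 and 27.2 CPM in wild types 3 and 4, 29.2 CPM in the library labelled wild type 1 and 19.1 CPM in wild type 2. High and low values occurred in both genotypes and both litters. Averages were 26.4 ± 4.28 CPM (SD, n = 5) in deletion libraries and 25.3 ± 4.35 CPM in wild types (SD, n = 4). Its log2 fold change was 0.06 (SE 0.16, adjusted p = 0.976, edgeR).

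Twist1, a bHLH factor that drives migration and proliferation of cushion mesenchyme (chr12:33957671-33959829, plus strand), had 21.0 and 21.6 CPM in deletions 3 and 4, 18.6 and 14.4 CPM in deletions 1 and 2 and 22.6 CPM in deletion 5. It had 19.7 and 22.8 CPM in wild types 3 and 4, 10.9 CPM in the library labelled wild type 1 and 7.90 CPM in wild type 2. As for Sox9, the first-litter wild types were the lowest of the 9. Its paralogue Twist2, known from dermal and craniofacial mesenchyme (chr1:91801461-91848028, plus strand), had the fewest reads of the members, with 49 to 140 counts in a deletion library and 97 to 185 in a wild type. Its level was 3.90 and 3.67 CPM in deletions 3 and 4, 2.46 and 1.71 CPM in deletions 1 and 2 and 3.61 CPM in deletion 5, against 3.84 and 3.10 CPM in wild types 3 and 4, 5.15 CPM in the library labelled wild type 1 and 2.41 CPM in wild type 2. The highest Twist2 value thus lay in a library in which Twist1 was low. Log2 fold changes were 0.36 (SE 0.29, adjusted p = 0.93, edgeR) for Twist1 and -0.24 (SE 0.32, adjusted p = 0.948, edgeR) for Twist2. Without wild type 2 that of Twist1 was 0.14, and without the library labelled wild type 1 that of Twist2 was -0.02.

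Snai1, a zinc finger repressor of E-cadherin (chr2:167538195-167542814, plus strand), had 17.9 and 18.8 CPM in deletions 3 and 4, 15.4 and 13.3 CPM in deletions 1 and 2 and 17.2 CPM in deletion 5, against 15.6 and 16.7 CPM in wild types 3 and 4, 9.46 CPM in the library labelled wild type 1 and 7.92 CPM in wild type 2. Snai2, or Slug, which acts in early cushion EMT (chr16:14705852-14709385, plus strand), had 122 and 141 CPM in deletions 3 and 4, 105 and 91.2 CPM in deletions 1 and 2 and 133 CPM in deletion 5. It had 119 and 108 CPM in wild types 3 and 4, 83.2 CPM in the library labelled wild type 1 and 60.7 CPM in wild type 2. For both genes every deletion library lay above every wild type of its own litter, and the genotypes overlapped only across litters. Log2 fold changes were 0.41 (SE 0.23, adjusted p = 0.896, edgeR) for Snai1 and 0.35 (SE 0.20, adjusted p = 0.896, edgeR) for Snai2. Without wild type 2 they were 0.25 for Snai1 and 0.20 for Snai2.

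Msx1, a homeobox gene needed together with Msx2 for normal outflow tract septation in mice (chr5:37820485-37824583, minus strand), had 39.9 and 55.9 CPM in deletions 3 and 4, 34.3 and 26.7 CPM in deletions 1 and 2 and 37.7 CPM in deletion 5, against 40.0 and 44.2 CPM in wild types 3 and 4, 15.2 CPM in the library labelled wild type 1 and 7.40 CPM in wild type 2. Msx2 (chr13:53466884-53473074, minus strand) had 31.9 and 27.1 CPM in deletions 3 and 4, 20.2 and 20.3 CPM in deletions 1 and 2 and 29.0 CPM in deletion 5. It had 27.7 and 21.2 CPM in wild types 3 and 4, 4.90 CPM in the library labelled wild type 1 and 7.43 CPM in wild type 2. Of the 10 genes Msx2 had the largest fold change between genotypes, at 0.75 on the log2 scale (SE 0.45, adjusted p = 0.901, edgeR), and that of Msx1 was 0.54 (SE 0.46, adjusted p = 0.933, edgeR). With 1 library left out the value of Msx2 ran between 0.45 (without the library labelled wild type 1) and 1.2 (without wild type 3), and that of Msx1 between 0.23 (without wild type 2) and 0.90 (without wild type 4). The spread within wild types was wider than either difference, at 15.3 ± 10.9 CPM for Msx2 (SD, n = 4) beside 25.7 ± 5.23 CPM in deletion libraries (SD, n = 5).

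Prrx1 and Prrx2 are paired-related homeobox genes of limb, craniofacial and cardiovascular mesenchyme. Prrx1 (chr1:163245119-163313710, minus strand) had 67.7 and 64.8 CPM in deletions 3 and 4, 75.9 and 62.5 CPM in deletions 1 and 2 and 80.0 CPM in deletion 5, against 61.1 and 56.3 CPM in wild types 3 and 4, 54.0 CPM in the library labelled wild type 1 and 31.2 CPM in wild type 2. Every deletion library lay above every wild type, by a margin of 62.5 to 61.1 CPM. Deletion libraries lay above all wild types in this way for 1 of the 10 members and for 0.829% of all genes tested. Prrx2 (chr2:30834972-30881251, plus strand) had 78.3 and 61.2 CPM in deletions 3 and 4, 62.1 and 44.2 CPM in deletions 1 and 2 and 63.8 CPM in deletion 5, against 69.3 and 73.9 CPM in wild types 3 and 4, 33.7 CPM in the library labelled wild type 1 and 38.4 CPM in wild type 2. Prrx2 overlapped between genotypes. The log2 fold changes were 0.47 for Prrx1 (SE 0.18, unadjusted p = 0.0234, adjusted p = 0.896, edgeR) and 0.20 for Prrx2 (SE 0.25, adjusted p = 0.948, edgeR). Without wild type 2 the value of Prrx1 was 0.30, and with 1 library left out that of Prrx2 ran between 0.03 (without the library labelled wild type 1) and 0.40 (without wild type 4).

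For deletion against wild type, 0 of the 10 members passed the adjusted threshold of 0.05 in edgeR's quasi-likelihood test, as did 0 of all 16522 genes (0%). At an unadjusted p under 0.05, 870 genes differed, among them 384 (2.32%) that were higher in deletion libraries, and Prrx1 was the 1 member there. DESeq2 called 40 genes and limma-voom 4, with 0 members in either. The members' log2 fold changes were above 0 in 9 of 10, with a median of 0.37, beside 50.6% of all genes above 0 and a median of 0.00 (0.003 unrounded). In whole tissue, fewer cells of a type and less RNA per cell cannot be told apart. No marker of other cell types passed for genotype either (edgeR), but some summed levels differed, and their part in the members' values was not tested. The 8 smooth muscle markers summed to 2540 to 3860 CPM in deletion libraries and 3890 to 4240 CPM in wild types. These sums were apart by a narrow margin, and Acta2 overlapped, with 1610 CPM in deletion 3 and 1600 CPM in wild type 4. The 10 epicardial markers summed to 576 to 999 CPM in deletion libraries and 900 to 1350 CPM in wild types, with overlap. Their extremes lay in the first litter, with 576 CPM in deletion 2, 1330 CPM in the library labelled wild type 1 and 1350 CPM in wild type 2. In the second litter the epicardial sums of both genotypes lay between 900 and 1050 CPM. Summed markers of endothelium overlapped, at 954 to 1150 CPM in deletion libraries and 924 to 1130 CPM in wild types, as did those of cardiac neural crest, at 469 to 597 CPM in deletion libraries and 482 to 550 CPM in wild types.

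**Figure D2:**
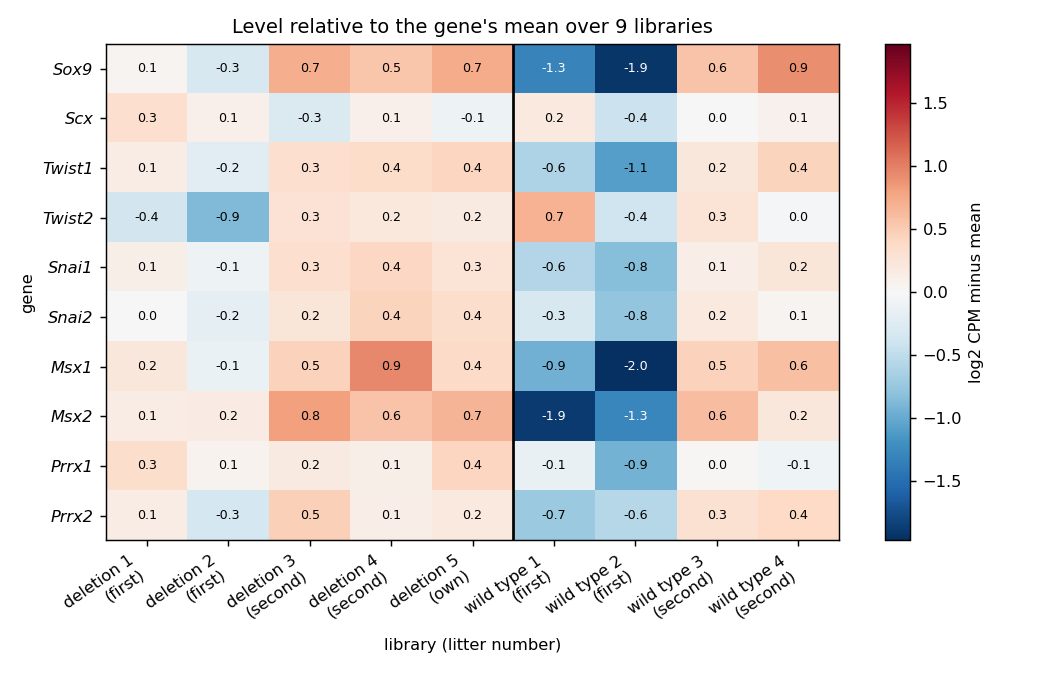
Log2 CPM of each gene (rows) in each library (columns, deletion left of the line and wild type right of it, litter in brackets) minus that gene's mean over the 9 libraries. Both columns of the first-litter wild types are blue in 8 of 10 rows, while Scx and Twist2 are blue in wild type 2 and red in the library labelled wild type 1.

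The order of the libraries ran by litter and genotype together. Both first-litter wild types lay below each of the other 7 libraries for Sox9, Twist1, Snai1, Snai2, Msx1, Msx2, Prrx1 and Prrx2, which is 8 of 10 members and 6.37% of all genes tested. By that order alone, the same 8 genes were higher in both deletion libraries than in both wild types of the first litter. This follows from the order and is not a further result. Over all genes, 17.2% had deletion libraries above wild types in the first litter. With deletion 5 added to the second litter, deletion libraries lay above wild types for 3 of 10 members (Snai1, Snai2 and Prrx1), beside 11.3% of genes.

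With genotype in the model, where deletion 5 as a level of its own adds nothing to the litter difference, 7 of the 10 members were higher in the second litter than in the first at an adjusted p under 0.05 (edgeR), and 905 of all genes were (5.48%). A further 689 genes were lower. The log2 differences were 1.54 for Sox9 (SE 0.33, adjusted p = 0.0281), 1.27 for Msx1 (SE 0.31, adjusted p = 0.04) and 1.25 for Msx2 (SE 0.30, adjusted p = 0.0344). They were smaller for Twist1, at 0.77 (SE 0.20, adjusted p = 0.0465), Prrx2, at 0.69 (SE 0.16, adjusted p = 0.0335), Snai1, at 0.62 (SE 0.15, adjusted p = 0.04), and Snai2, at 0.54 (SE 0.12, adjusted p = 0.0273). Twist2 (0.36, SE 0.34, adjusted p = 0.538), Prrx1 (0.20, SE 0.18, adjusted p = 0.523) and Scx (-0.09, SE 0.17, adjusted p = 0.781) did not pass. The median over members was 0.66, beside -0.03 over all genes. For 6 members (Sox9, Twist1, Snai1, Snai2, Msx1 and Msx2) every second-litter library lay above every first-litter library, beside 11.1% of genes.

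These calls rest on few libraries. Without deletion 3, wild type 3 or wild type 4, 0 of the 10 members were called and 409, 380 and 424 genes over the whole table. Without the library labelled wild type 1 the 1 member called was Snai2, among 993 genes; without deletion 4 they were Sox9, Msx2 and Prrx2, among 783 genes. Leaving out wild type 2 left Sox9, Msx1 and Snai2 among 1515 genes, and leaving out deletion 2 left Sox9, Msx1, Msx2 and Snai2 among 1724, so that members lost their calls there while the count over all genes stayed near the 1594 of the full fit. All 7 stayed above 0 in each of these fits. Without the filter on low counts Sox9 (adjusted p = 0.12), Msx1 (adjusted p = 0.166) and Msx2 (adjusted p = 0.113) no longer passed in edgeR, which then called 1904 genes, and DESeq2 called all 7.

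Within the second litter the deletion differences lay between -0.13 and 0.27 on the log2 scale, and within the first between -0.85 and 1.72. In a fit on the 8 libraries of the 2 litters, the log2 fold change of Sox9, deletion over wild type, was -0.12 (SE 0.22) in the second litter and 1.47 (SE 0.23) in the first. For Msx2 the values were 0.27 (SE 0.23) in the second and 1.72 (SE 0.24) in the first, and for Msx1 0.19 (SE 0.32) in the second and 1.43 (SE 0.33) in the first. Twist1 had 0.00 in the second litter (0.003 unrounded, SE 0.22) and 0.81 (SE 0.22) in the first. In the second litter Snai1 had 0.18 (SE 0.18), Snai2 0.22 (SE 0.17), Prrx1 0.17 (SE 0.23) and Prrx2 -0.04 (SE 0.19). In the first litter Snai1 had 0.73 (SE 0.19), Snai2 0.45 (SE 0.17), Prrx1 0.70 (SE 0.23) and Prrx2 0.56 (SE 0.19). Twist2 went the other way, with 0.13 (SE 0.43) in the second litter and -0.85 (SE 0.44) in the first, and Scx had -0.13 (SE 0.23) in the second and 0.31 (SE 0.23) in the first. The first-litter values draw on the library labelled wild type 1, whose Nkx2-5 level was that of a deletion library.

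**Figure D3:**
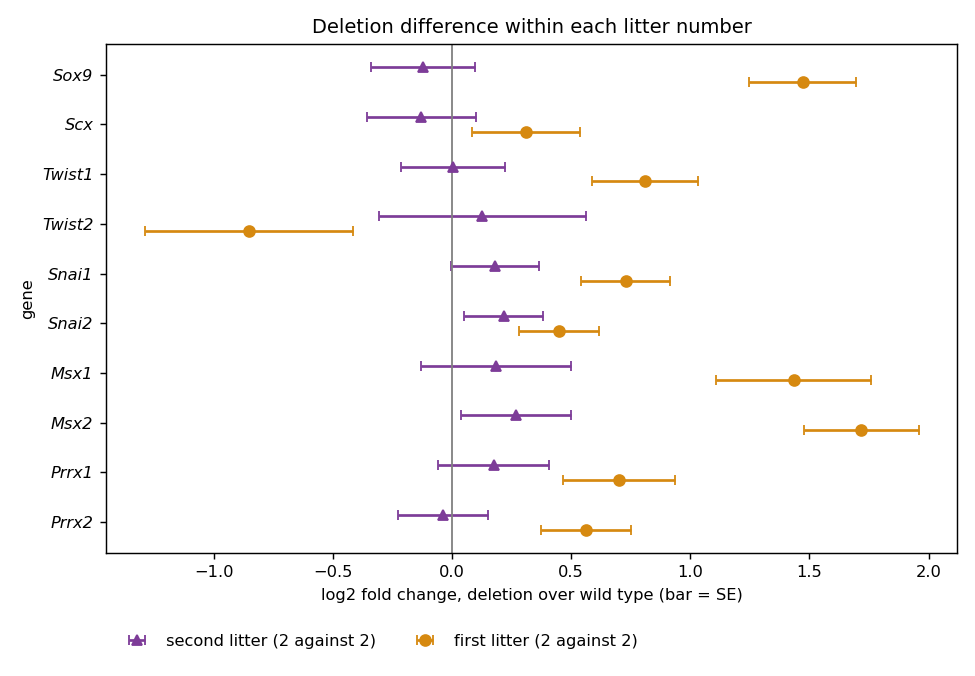
Log2 fold change of each gene, deletion over wild type, in the second litter (triangles) and in the first litter (circles), 2 libraries against 2 in each, with bars of 1 SE from the fit on 8 libraries. The second-litter values cluster around 0, and in the first litter Msx2 lies farthest right at 1.72 and Twist2 farthest left at -0.85.

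The difference between litters in the deletion effect was tested as an interaction. No member passed at an adjusted p under 0.05 in edgeR (0 of 10), and 2 of 16522 genes did (0.0121%). At an unadjusted p under 0.05, 4 of 10 members had a lower deletion effect in the second litter, beside 567 genes (3.43%). They were Sox9 (-1.59, SE 0.31, unadjusted p = 0.000931, adjusted p = 0.328), Msx2 (-1.45, SE 0.33, unadjusted p = 0.00235, adjusted p = 0.37), Msx1 (-1.25, SE 0.45, unadjusted p = 0.0243, adjusted p = 0.535) and Twist1 (-0.81, SE 0.31, unadjusted p = 0.0311, adjusted p = 0.564). DESeq2 called 180 genes, among them Sox9 (adjusted p = 0.000241) and Msx2 (adjusted p = 0.0118). Interaction estimates were below 0 for 9 of the 10 members and above 0 for Twist2 (0.98, SE 0.62, adjusted p = 0.746).

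The litter difference can also be read within each genotype. Sox9 was higher in the second litter by 0.75 (SE 0.22) on the log2 scale among deletion libraries and by 2.34 (SE 0.23) among wild types. Msx2 differed by 0.54 (SE 0.23) among deletion libraries and by 1.99 (SE 0.24) among wild types, and Msx1 by 0.65 (SE 0.32) among deletion libraries and by 1.90 (SE 0.33) among wild types. For Snai2, with 0.43 (SE 0.17) among deletion libraries and 0.66 (SE 0.17) among wild types, both values lay close together. Scx had -0.31 (SE 0.23) among deletion libraries and 0.13 (SE 0.23) among wild types, and Twist2 had 0.855 (SE 0.44) among deletion libraries and -0.12 (SE 0.43) among wild types. These are the same interaction estimates seen from the other side, and add no test.

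**Figure D4:**
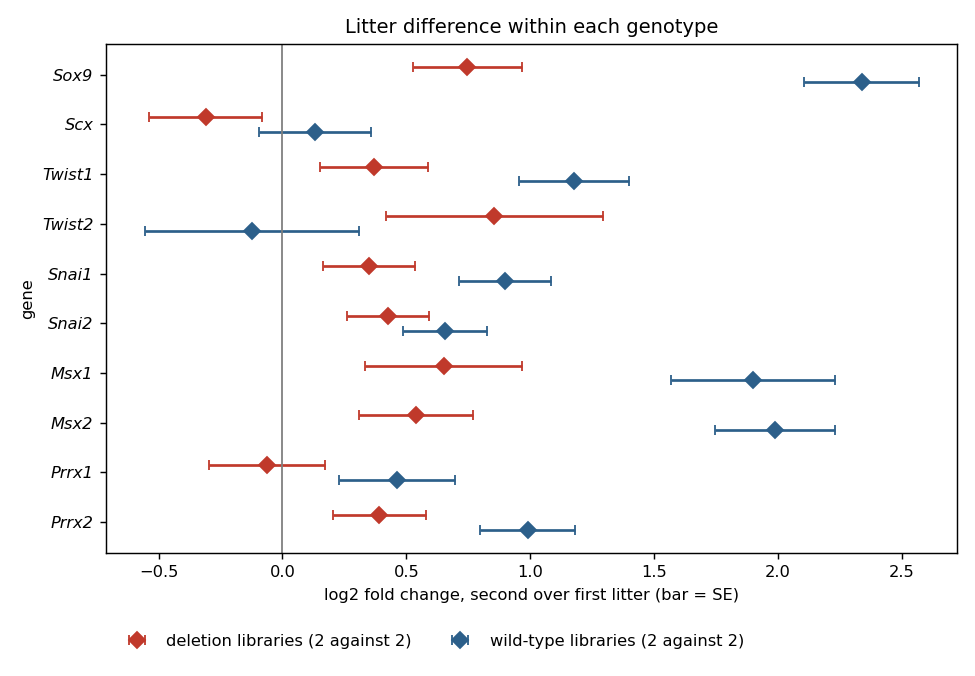
Log2 fold change of each gene, second over first litter, among deletion libraries (red) and among wild types (blue), 2 libraries against 2 in each, with bars of 1 SE. Values among deletion libraries reach at most 0.855, for Twist2, and wild-type values lie at 2.34 for Sox9, 1.99 for Msx2 and 1.90 for Msx1.

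Paralogues did not keep fixed proportions to the same degree. Snai2 stood to Snai1 at a log2 ratio of CPM per kb of 2.52 ± 0.09 in deletion libraries (SD, n = 5) and 2.60 ± 0.18 in wild types (SD, n = 4), the narrowest range of the 4 pairs. The log2 ratio of Prrx2 to Prrx1 was 2.30 ± 0.27 (SD, n = 5) in deletion libraries and 2.55 ± 0.49 (SD, n = 4) in wild types, where the library labelled wild type 1 had 1.82 and the other 3 between 2.68 and 2.89. The size of this ratio depends on the merged exon lengths, 1961 bases for Prrx2 and 11066 for Prrx1. Msx2 to Msx1 gave -0.66 ± 0.31 (SD, n = 5) in deletion libraries and -0.89 ± 0.70 (SD, n = 4) in wild types. Both ends of that ratio, -1.72 in the library labelled wild type 1 and -0.08 in wild type 2, fell in the first-litter wild types. Twist2 to Twist1 lay between -4.03 and -3.39 in deletion libraries, at -3.32 and -3.84 in wild types 3 and 4, at -2.05 in the library labelled wild type 1 and at -2.68 in wild type 2. Twist2 therefore made up more of the Twist signal in those first-litter wild types than in each of the other 7 libraries.

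**Figure D5:**
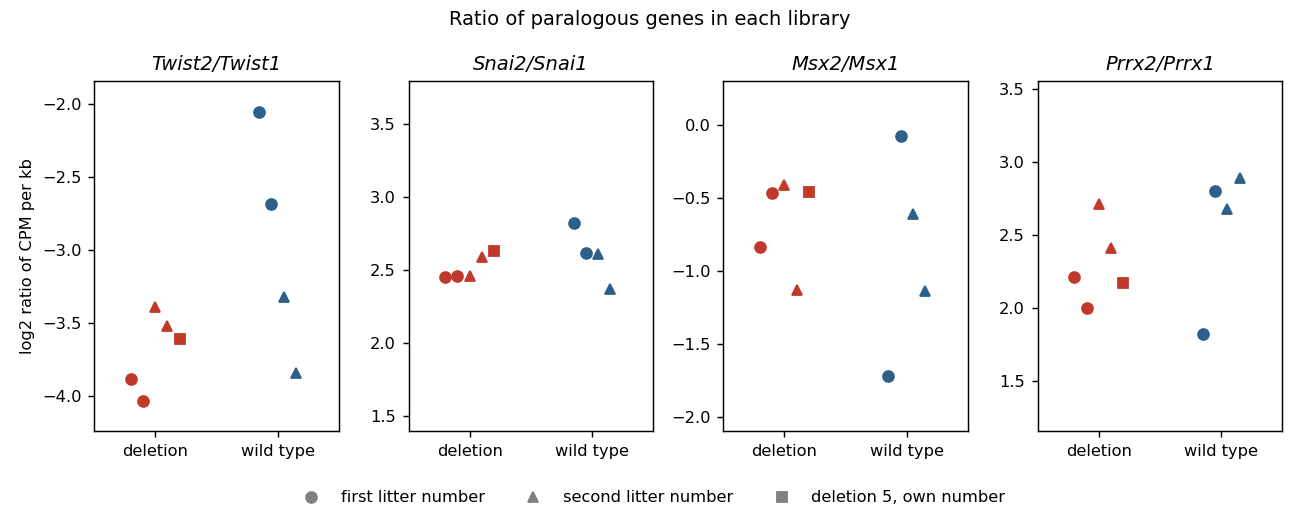
Log2 ratio of CPM per kb for the paralogue pairs in each deletion library (red, left) and wild-type library (blue, right), with marker shapes for litter numbers and an axis span of the same length in each panel. The ratio of Snai2 to Snai1 varies least, and the first-litter wild types lie at both ends for Msx2 to Msx1 and at the top for Twist2 to Twist1.

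Other genes of the pathways around these factors were counted in lists that leave the members out. Of 32 genes for the induction of cushion EMT (BMP, TGF-beta, Notch, ErbB and their mediators), 0 passed for deletion against wild type, with 20 above 0 and a median of 0.05. In the second litter 6 rose and 1 fell relative to the first (edgeR, adjusted p under 0.05). Bmp2, a myocardial inducer of cushion EMT, was among those that rose (1.18, SE 0.26, adjusted p = 0.0281), as were Bmp4 (0.79, SE 0.13, adjusted p = 0.0119), the neuregulin receptor gene Erbb3 (1.90, SE 0.42, adjusted p = 0.0308) and Notch1 (0.48, SE 0.11, adjusted p = 0.0275). Acvrl1, an endothelial receptor gene of the TGF-beta family, fell (-1.12, SE 0.30, adjusted p = 0.0491).

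Of 36 other transcription factor genes of EMT and the cushions, 34 were tested. None passed for deletion (0 of 34; median 0.13), and 10 rose and 0 fell in the second litter. Those that rose included Hand1 (1.45, SE 0.20, adjusted p = 0.00787), Gata5 (1.06, SE 0.09, adjusted p = 0.00319), Gata4 (0.80, SE 0.10, adjusted p = 0.00648) and Nfatc1, a gene of valve endocardium (0.81, SE 0.15, adjusted p = 0.0156). For 12 of the 34, both first-litter wild types lay below the other 7 libraries. Tbx20, a T-box gene of endocardial cushions and heart muscle, had 688 ± 88.0 CPM in deletion libraries (SD, n = 5) and 481 ± 172 CPM in wild types (SD, n = 4; log2 fold change 0.52, SE 0.22, adjusted p = 0.896, edgeR). Its low values were those of the first-litter wild types, 339 CPM in the library labelled wild type 1 and 328 CPM in wild type 2. Wild types 3 and 4 had 597 and 659 CPM, within the 578 to 815 CPM of the deletion libraries.

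Effectors of EMT were split. Of 19 tested from 20 listed, 0 passed for deletion (median 0.04), and 3 rose and 2 fell in the second litter. Tgfbi (1.49, SE 0.22, adjusted p = 0.00883) and the fibronectin gene Fn1 (0.71, SE 0.14, adjusted p = 0.0194) rose, and the endothelial junction genes Cldn5 (-1.37, SE 0.28, adjusted p = 0.0215) and Cdh5 (-0.61, SE 0.13, adjusted p = 0.0215) fell. Postn, the gene of the cushion matrix protein periostin, had 842 ± 95.5 CPM in deletion libraries (SD, n = 5) and 588 ± 185 CPM in wild types (SD, n = 4; log2 fold change 0.52, SE 0.20, adjusted p = 0.896, edgeR). The first-litter wild types were again lowest, at 521 CPM in the library labelled wild type 1 and 361 CPM in wild type 2. Wild types 3 and 4 had 693 and 776 CPM, and the deletion libraries 743 to 1000 CPM.

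Matrix genes showed opposite litter differences within one list. Of 23 tested genes linked to Sox9 and Scx, 0 passed for deletion (median -0.13), 3 rose and 4 fell in the second litter. The genes that rose were Hapln1 (1.84, SE 0.37, adjusted p = 0.0236), Col2a1 (1.21, SE 0.31, adjusted p = 0.0485) and Col9a1 (1.18, SE 0.17, adjusted p = 0.00803). The fibrous matrix genes Dcn (-1.84, SE 0.21, adjusted p = 0.00438), Col14a1 (-1.59, SE 0.17, adjusted p = 0.00386) and Fmod (-0.52, SE 0.10, adjusted p = 0.0182) and the aggrecan gene Acan (-1.88, SE 0.49, adjusted p = 0.0468) fell. Of 13 genes of cushion matrix, 0 passed for deletion (median -0.24), and 4 rose and 1 fell in the second litter. Has2, the hyaluronan synthase gene required for cushion formation in mice, rose by 2.01 (SE 0.33, adjusted p = 0.0123), and Vcan, which encodes the hyaluronan-binding versican, by 1.58 (SE 0.33, adjusted p = 0.0239).

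Has2, like Sox9, was lowest in the first-litter wild types, at 104 and 90.6 CPM in deletions 3 and 4, 50.7 and 32.7 CPM in deletions 1 and 2 and 125 CPM in deletion 5, against 82.5 and 89.6 CPM in wild types 3 and 4, 13.2 CPM in the library labelled wild type 1 and 11.2 CPM in wild type 2. The elastin gene Eln ran the opposite way, with 2080 to 3930 CPM in deletion libraries, 3110 and 2380 CPM in wild types 3 and 4, 11600 CPM in the library labelled wild type 1 and 7700 CPM in wild type 2. Its deletion difference was -1.06 (SE 0.43, adjusted p = 0.896, edgeR).

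The genes whose libraries ran most like a member's were taken by Pearson's r of log2 CPM over the 9 libraries after removal of the genotype means. They were Bcl11a for Sox9 (r = 0.997) and Twist1 (r = 0.994), Lef1 for Snai1 (r = 0.99), Ythdf1 for Snai2 (r = 0.984), Mxd1 for Msx1 (r = 0.992), Itga1 for Msx2 (r = 0.98), Rbm39 for Prrx1 (r = 0.988), Rcor1 for Prrx2 (r = 0.974), Nek6 for Twist2 (r = 0.987) and Pcgf1 for Scx (r = 0.965). The second in rank for Msx2 was Col2a1 (r = 0.979) and for Snai1 Tcf12 (r = 0.989). No member was among the nearest 2 genes of another member. Each r is the highest among all the other genes tested, over 9 points that share the litter split, and is given as a description.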

How the data were processed

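Per the labels' protocols, total RNA came from RNeasy extraction of dissected outflow tracts, and a SMART-Seq kit for low input gave the libraries. The deposited values are whole-number counts per gene symbol, 1 file per library. Reads were processed on mm10 with STAR 2.5.0c and HTSeq 0.6.0 among the tools, beside Picard and DESeq2, per the submitters' processing notes. The 5 rows that name no gene held 20.6% to 23.5% of each library's counts and were left out. A SMART-Seq library amplified from little RNA can add spread, and its counts are not independent molecules.

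Counts were fitted with edgeR 4.0.16 in R 4.3.3 (robust quasi-likelihood, TMM factors, filterByExpr with a minimum count of 10, two-sided, Benjamini-Hochberg over all genes tested, threshold 0.05). The genotype fit used all 9 libraries, the litter fit added the litter number with deletion 5 as its own level, and the interaction used the 8 libraries of the numbers that hold both genotypes. CPM uses TMM-scaled totals, with a prior count of 2 for log2 CPM. The fits by DESeq2 1.42.0, limma 3.58.1 with voom, other filters, the replicate block, within-litter fits and each library left out in turn were alternatives. The procedure was tested on simulated counts. No 2 libraries agreed within sampling noise.

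For same-numbered libraries of the genotypes, deviations from the group means had r = 0.242, 0.137, 0.227 and 0.176 for numbers 1 to 4. The numbers, taken from the sample titles, were used as pairs only in the alternative fits with the replicate block. The main genotype fit was not paired. The highest r was nonetheless with another number for 3 libraries: wild type 2 ran closest to deletion 1, wild type 4 to deletion 5, and deletion 2 to the library labelled wild type 1. Numbers 1 and 2 are the first litter and 3 and 4 the second, so pairing and litter cannot be told apart. The members and the gene lists were chosen with earlier results of these data known. Named were all members, Nkx2-5, up to 4 genes per list with the smallest p, and the 2 genes most like each member. The list genes named for their litter difference or for their library order (among them Has2, Eln, Bmp2, Hand1, Gata4, Gata5, Dcn and Cdh5) were chosen after their values were seen.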

Additional observations from a re-analysis of the deposited data

How the results depend on the processing

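For deletion against wild type, edgeR called 0 genes, and the count was also 0 under 14 alternatives. It was 40 in DESeq2, 4 in limma-voom, 1 in the first litter only, 7 in the second litter only and 0 to 1 with 1 library left out. With the replicate number as a block, edgeR called 0 genes and DESeq2, a fit added after the data were seen, 69; the block changed no member's call. No member was called under any of the 21 alternatives. Signs turned within the second litter, alone and with deletion 5, for Sox9 (-0.122 and -0.086), Twist2 (0.125 and 0.105), Prrx2 (-0.039 and -0.079) and Scx (-0.132 and -0.135). Scx was also -0.017 in limma-voom and ran between -0.048 and 0.14 with 1 library left out. The cause was not tested. For second against first litter, DESeq2 called 3144 genes and leaving out 1 library gave 380 to 1724; Scx then ran from -0.243 to 0.027. For the interaction, 10 genes passed with deletion 5 in the second litter, 180 in DESeq2 and 0 to 243 with 1 library left out (243 without deletion 1, each fit leaving 1 library in a genotype and litter that is assumed to vary like the others), with 0 members except the 2 in DESeq2. With 2 libraries per genotype and litter, and Twist2 at 49 to 185 counts per library, small differences were not detectable.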

Other observations

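Marker lists of other cell types were followed beside the members, and no gene of them passed for deletion against wild type in edgeR. Of 12 heart muscle markers, Nkx2-5 included, 1 had a log2 fold change above 0 (median -0.27). All 8 smooth muscle markers had log2 fold changes below 0 (median -0.34). At an unadjusted p under 0.05 (edgeR), 6 of the 8 were lower, beside 486 of all 16522 genes. Myocd, among those 6, had 47.5 ± 4.12 CPM in deletion libraries (SD, n = 5) and 60.3 ± 10.5 CPM in wild types (SD, n = 4). Of 10 epicardial markers 8 were below 0 (median -0.54), with the smallest p for the keratin gene Krt19, at 49.3 ± 12.2 CPM in deletion libraries (SD, n = 5) and 88.5 ± 15.1 CPM in wild types (SD, n = 4). Krt8, an epithelial keratin gene counted with the foregut markers, had 14.9 ± 2.5 CPM in deletion libraries (SD, n = 5) and 29.7 ± 3.84 CPM in wild types (SD, n = 4; adjusted p = 0.213, edgeR), the smallest adjusted p of all the lists.

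By litter, 0 of the 12 heart muscle, 8 smooth muscle, 11 neuronal and 8 foregut markers tested passed. Of 12 endothelial markers 3 rose and 4 fell in the second litter, of 9 blood markers 2 fell, of 10 epicardial markers 1 fell, of 9 neural crest markers 1 rose, and of 11 limb and pharyngeal arch markers 1 rose and 1 fell. The limb and arch gene that rose was Col2a1 and the one that fell was Acan. Both are also in the list linked to Sox9 and Scx and are given there. Limb and arch markers summed to 105 to 152 CPM in deletion libraries and 88.2 to 237 CPM in wild types, blood markers to 483 to 1770 CPM in deletion libraries and 589 to 2440 CPM in wild types, and foregut markers to 53.9 to 76.6 CPM in deletion libraries and 88.8 to 98.4 CPM in wild types. The foregut sums were mostly Krt8 and the keratin gene Krt18. Krt18 averaged 36.5 CPM in deletion libraries and 48.6 CPM in wild types. Each other foregut marker tested averaged at most 5.58 CPM in either genotype. Of the 8 foregut markers tested, 4 had log2 fold changes above 0 for deletion. In the limb and arch sum, Col2a1 had the highest average, at 92.8 CPM in deletion libraries and 116 CPM in wild types. Sox10, a neural crest and Schwann cell gene, stood at 15.7 CPM in deletion 2, up to 1.61 CPM in the other deletion libraries and up to 1.38 CPM in wild types.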
